A study of Mus musculus with 42 samples.

Results

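The major urinary protein (Mup) genes and pseudogenes were described by their position relative to lamina-associated domains (LADs) in mouse liver. Members were all genes of the GENCODE vM21 annotation, coding or pseudogene, that lie on chromosome 4 and whose symbol starts with Mup. This gave 48 genes of the 55413 annotated on chromosomes 1 to 19, X and Y, of which 22 are protein-coding and 26 are pseudogenes. A gene was taken to be in a LAD of a library when its start lay inside a deposited LAD interval of that library. Members were therefore chosen by name and place. No measured value entered that rule, but earlier results of these data were known when it was set.

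LADs had been mapped by ChIP-seq of lamin B1 (LMNB1) in livers of wild-type C57Bl/6 mice, from 2 non-synchronized (NS) mice and from 2 mice at each of circadian times CT0, CT6, CT12, CT18, CT24 and CT30. All mice lived in a 12 h light and 12 h dark cycle. The CT groups had been kept without chow for 24 h and refed from CT0, and NS mice were killed before the fast. The 14 libraries are separate mice, and no age was given. The deposited intervals cannot check the tissue by marker genes. The labels call the mice female in some fields and male in others, and the study's methods give male. Mup transcription in liver is known to be higher in males.

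Major urinary proteins are small lipocalins, barrel-shaped carriers that liver cells secrete in large amounts and that pass into urine, where they hold and slowly release volatile pheromones. Growth hormone acting through the kinase JAK2 and the factor STAT5B, together with thyroid hormone, drives their transcription in liver. In the vomeronasal organ of the nose, receptors of the Vmn2r family detect several of them. LADs are broad, gene-poor and mostly silent stretches of chromatin that touch the nuclear lamina. The place of a gene family that is among the most strongly transcribed in liver can thus be read against them. By the study's own account, its ChIP does not tell LMNB1 at the lamina from LMNB1 inside the nucleus. The study did not exclude that some of the contacts are with the latter.

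The 48 genes formed 1 run on chromosome 4 (mm10, chr4:59956804-62150863, 2.19 Mb), from Mup4 at the centromere-proximal end to Mup21 at the telomere-proximal end. Of the coding genes, 21 lie on the minus strand and 1, Mup6, on the plus strand, while 20 of the 26 pseudogenes lie on the plus strand. Starts of neighbouring coding genes are a median of 80.0 kb apart, with 10 of the 21 spacings between 70 and 90 kb. In 15 cases a minus-strand coding gene is followed by a plus-strand pseudogene, a median of 15.3 kb further on. Such pairs stand head to head, with their starts facing each other. No other protein-coding gene overlaps it (0 genes), and the 6 other annotated genes inside it are Gm13773, Gm21286, Gm12573, Gm13775, Gm12909 and Gm12910. One further gene of the name, the pseudogene Mup-ps22 on chromosome 11, is not a member and lay outside LADs in all 14 libraries.

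The units are near copies of each other, which bears on how well reads can be placed. The stretches below let some of them be compared just before the starts given by RefSeq. They come from RefSeq promoters on GRCm38.p6 (mm10), for 14 of the 22 coding genes that could be matched by symbol. Each holds 60 bases before the motif TATATAA, a form of the TATA box that positions RNA polymerase II, the motif itself in capitals, and 3 bases after it, on the minus strand. Mup4 stands for the edge of the cluster, and Mup9, Mup10, Mup18, Mup15 and Mup19 for its inside. By GENCODE, the last 24 bases of each stretch except that of Mup9 lie inside the annotated gene. By RefSeq, every stretch ends before the start of its gene.
Mup4, chr4:59960687-59960756: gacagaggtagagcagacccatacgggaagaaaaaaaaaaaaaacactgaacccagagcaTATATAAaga
Mup9, chr4:60421974-60422043: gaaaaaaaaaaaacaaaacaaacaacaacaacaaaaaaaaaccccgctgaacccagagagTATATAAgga
Mup10, chr4:60582176-60582245: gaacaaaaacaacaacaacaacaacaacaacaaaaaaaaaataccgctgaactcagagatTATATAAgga
Mup18, chr4:61674113-61674182: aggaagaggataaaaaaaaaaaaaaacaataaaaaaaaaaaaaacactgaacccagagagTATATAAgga
Mup15, chr4:61439720-61439789: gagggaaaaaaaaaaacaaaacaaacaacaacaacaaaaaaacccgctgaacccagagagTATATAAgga
Mup19, chr4:61782246-61782315: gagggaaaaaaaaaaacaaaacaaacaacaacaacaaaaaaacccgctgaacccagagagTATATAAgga
The stretches of Mup15 and Mup19 have the same letters, and each of their 21 words of 50 bases (runs of 50 consecutive bases) occurs at 2 places in the genome. In Mup4, Mup9, Mup10 and Mup18 the run of A and AAC repeats before the motif differs, and all 21 words occur at 1 place. Of the stretches not printed, all 21 words of Mup6 and Mup3, and 20 of 21 in Mup2 and Mup17, occur at 1 place. The other matched genes gave no such stretch.

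TATATAA was found on either strand in the 300-base promoter window of 13 of the 14 matched genes, all but Mup7, and in 3.24% of the 32851 promoter windows of the table. CACGTG, the E-box bound by the clock factors CLOCK and BMAL1, was found in 0 of the 14, and in 7.15% of all windows. TTCNNNGAA, the core of STAT sites, was likewise found in 0 of the 14, and in 8.30% of all windows. The 14 promoters are related copies (median identity 93.4% over the 250 bases before the start) and are not independent observations. No match says only that these letters are not in the window.

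No Mup gene was in a LAD in any library. In each of the 14 libraries 0 of the 48 starts lay inside a LAD, 0 of the 48 gene bodies overlapped a LAD by even 1 bp, and LADs covered 0% of the cluster. That held for both NS mice and for both mice at each CT, so the share did not vary among the 6 CTs, nor between CT0 and NS, and no F ratio could be formed. With 2 mice against 2, the smallest two-sided p of an exact permutation test would have been 0.333.

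Most genes of the mouse are outside LADs in liver too. The share of all 55413 genes with their start in a LAD was 7.21% and 11.8% in the 2 NS libraries, 8.44% and 11.8% at CT0, 10.8% and 14.5% at CT6, 11.8% and 13.4% at CT12, 13.8% and 15.9% at CT18, 13.7% and 11.8% at CT24, and 10.1% and 9.14% at CT30. The 48 Mup genes are 1 locus, not 48 separate draws, so these counts describe a single neighbourhood. The share of Mup genes minus that of all other genes was on average -11.7 percentage points (-15.9 to -7.22, lower in 14 of 14 libraries). An exact two-sided permutation test over sign changes gave p = 0.00012, the smallest that 14 libraries allow. A list with 0 genes in LADs has to be lower in every library, so this p adds nothing to the counts. Among protein-coding genes alone the mean difference was -7.73 percentage points, and on the intersect of both mice of each time point it was -8.47 (exact permutation p = 0.0156). That p is again the smallest possible with 1 value per time point, and it adds nothing either.

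**Figure D1:**
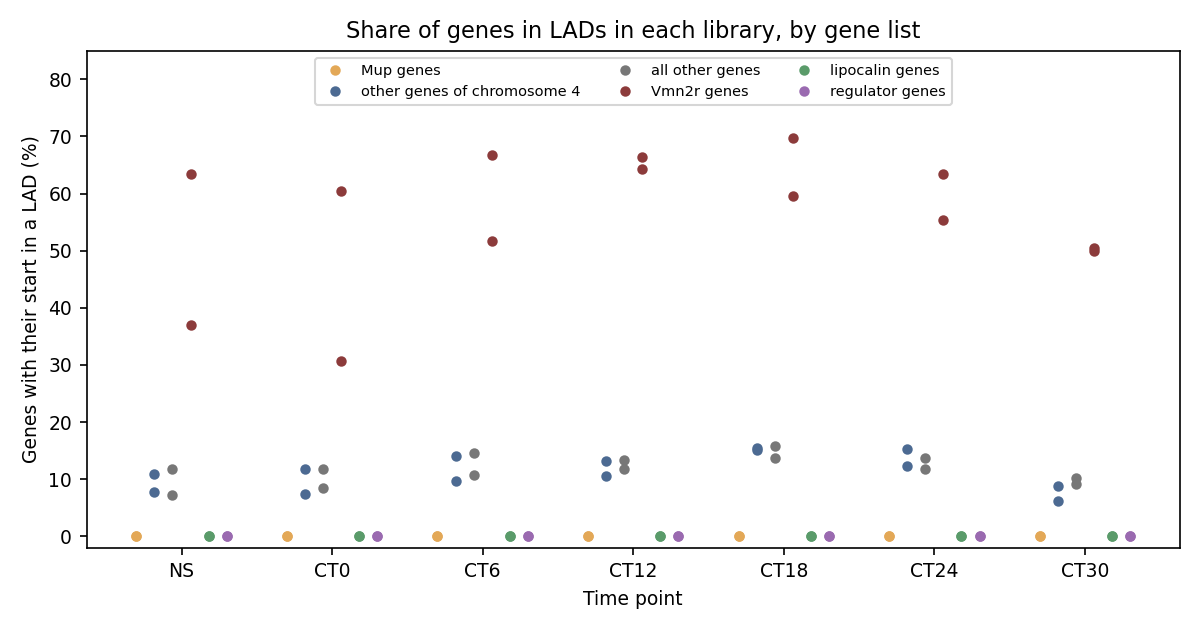
Share of genes with their start in a LAD (y axis, percent) at each time point (x axis), with 1 point per library and 1 colour per gene list. Mup, lipocalin and regulator genes sit at 0% in all 14 libraries, other genes between 6.19% and 15.9%, and Vmn2r genes between 30.7% and 69.7%.

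Genes linked to Mup proteins by family or by control were read against other protein-coding genes, of which a median of 8.04% (4.02% to 10.4% over the libraries) were in LADs. Of 26 lipocalin genes listed, 23 were matched by symbol, and 0 of the 23 were in a LAD in any library. Of these, 13 lie within 1.205 Mb on chromosome 2 and are a single neighbourhood. The list also includes Orm1, Orm2 and Orm3, which encode the acute-phase protein orosomucoid, and Ambp, which encodes alpha-1-microglobulin. These 4 lie on chromosome 4 past the telomere-proximal end of the Mup cluster, and Orm2 came within 0.592 Mb of a LAD in the library where it was nearest. Of 18 genes listed as part of, or close to, the control of Mup transcription in liver, 0 were in a LAD in any library. Among them are Ghr, Jak2, Stat5a, Stat5b and Zhx2. Zhx2 came nearest, at 0.339 Mb from a LAD. With lists this short and a background this low, counts of 0 show nothing particular to these genes. Of the 238 Vmn2r receptor genes a median of 60.1% (30.7% to 69.7% over the libraries) were in LADs, beside a median of 11.8% of all genes other than Mup genes and of 11.3% of the other 2825 genes of chromosome 4. The Vmn2r genes too lie in groups and are not separate draws. All those on chromosome 7 were in a LAD in at least 1 library, and none of those on chromosome 3 was in any.

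The LADs nearest to the cluster lay megabases away on both sides, and the telomere-proximal LAD was the nearer in all 14 libraries. On the centromere-proximal side, 13 libraries had a LAD near chr4:50150001-51980000, a stretch that lay in a LAD in at least 12 of the libraries. From the cluster, the end of that LAD was 7.66 Mb away in NS replicate 2. At CT0 it was 7.55 Mb and 7.67 Mb away, at CT6 6.97 Mb and 7.78 Mb, and at CT12 7.66 Mb and 8.14 Mb. At CT18 it was 7.67 Mb and 7.70 Mb away, at CT24 6.95 Mb and 6.98 Mb, and at CT30 7.69 Mb and 7.98 Mb. NS replicate 1 had no LAD there, and its nearest LAD on this side ended 27.7 Mb away. This library stood apart in other ways, with the fewest LADs (86, against a median of 185 over the 14 libraries), the lowest LAD coverage (335 Mb) and the coarsest bin, 61 kb.

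Among the 6 CTs the centromere-proximal distance did not differ beyond the spread between mice (F = 2.87, exact permutation test over 10395 divisions of the 12 libraries into 6 pairs, p = 0.195, 0.292 after Benjamini-Hochberg adjustment over 3 tests). Both CT24 mice were closer than all other CT mice except CT6 replicate 1, which lay between them. Without CT6 replicate 2 the exact permutation p was 0.0159. CT6 is then a single mouse whose spread is taken from the other CTs, and the largest SD among the CTs (0.578 Mb, n = 2) is removed. A LAD of the centromere-proximal side reached its farthest in the CT24 mice and in CT6 replicate 1, where its end took in the starts of Smc2, which encodes a condensin subunit, and of the olfactory receptor genes Olfr275, Olfr273, Olfr272 and Olfr270 (3 libraries each). Cylc2, which encodes a protein of the sperm head, was in this LAD in 13 libraries.

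**Figure D2:**
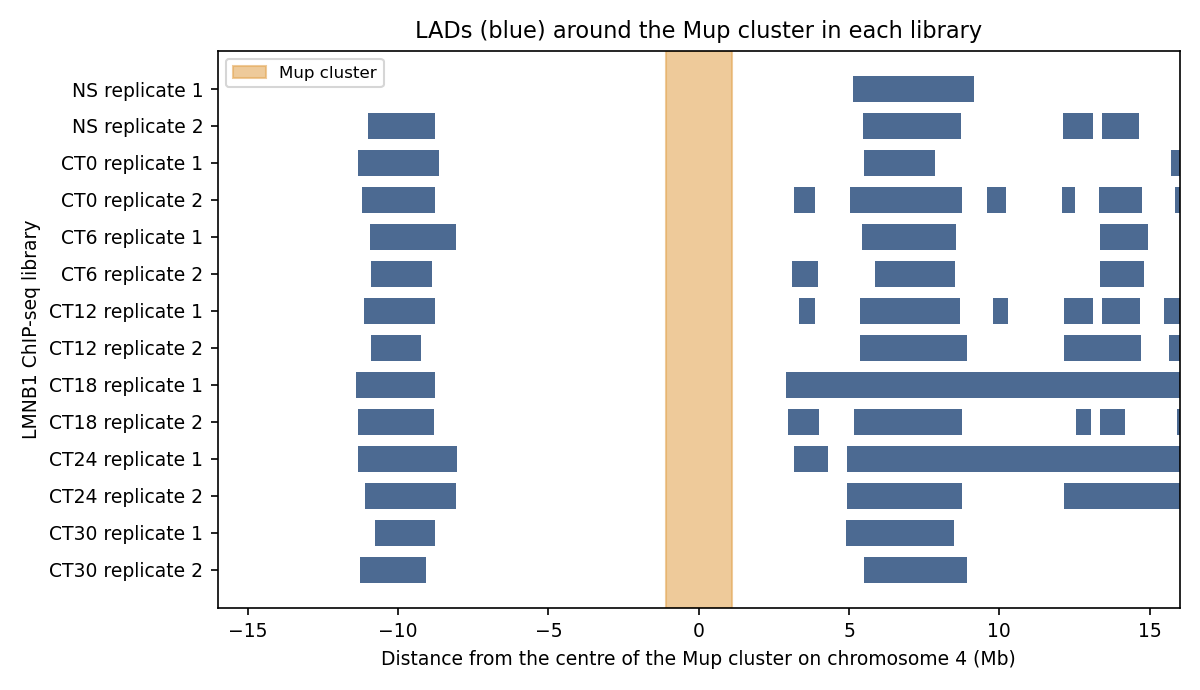
LADs (blue bars) in each of the 14 libraries (y axis), plotted by distance in Mb from the centre of the Mup cluster (orange band) on chromosome 4 (x axis, centromere to the left). The band is free of LADs in every library, the LAD to its left is missing only in NS replicate 1, and a short LAD just right of it appears on its own in 5 libraries and as part of a 16.8-Mb LAD in CT18 replicate 1.

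On the telomere-proximal side the first LAD fell into 2 positions. In NS mice it began 4.03 Mb and 4.38 Mb from the cluster. It began 4.40 Mb and 2.07 Mb away at CT0, 4.35 Mb and 1.99 Mb at CT6, and 2.23 Mb and 4.26 Mb at CT12. It began 1.80 Mb and 1.87 Mb away at CT18, 2.07 Mb and 3.82 Mb at CT24, and 3.82 Mb and 4.41 Mb at CT30. In 6 libraries a LAD began 1.80 to 2.23 Mb from the cluster, and in the other 8 the first LAD began 3.82 to 4.41 Mb away. The replicates of CT0, CT6, CT12 and CT24 fell on different sides of that divide, both CT18 mice had the near LAD, and neither NS mouse nor CT30 mouse had it.

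The near LAD was short, 0.555 Mb in CT12 replicate 1, 0.696 Mb in CT0 replicate 2, 0.869 Mb in CT6 replicate 2, 1.04 Mb in CT18 replicate 2 and 1.15 Mb in CT24 replicate 1. In CT18 replicate 1 it was joined to everything up to the far LADs in 1 interval of 16.8 Mb. Where the near LAD stood alone, it held few starts of protein-coding genes. Tnc, which encodes the matrix protein tenascin C, was in it in CT18 replicate 2. Pappa, which encodes a protease of growth factor binding proteins, was in it in CT24 replicate 1. Both starts also lay in the 16.8-Mb interval of CT18 replicate 1. The LAD behind the near one, around chr4:66552001-69564000, lay in a LAD in at least 12 libraries along its length. Of its genes, Tlr4, the receptor for bacterial lipopolysaccharide, had its start in a LAD in all libraries but CT6 replicate 2, and Brinp1, a gene expressed in neurons, in all but CT0 replicate 1.

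The distance on this side did not differ between the 6 CTs beyond the spread between mice (F = 0.698, exact permutation p = 0.584 over 10395 divisions, 0.584 after adjustment over 3 tests). CT18 had the shortest mean distance, 1.84 ± 0.0467 Mb (SD, n = 2), and CT30 the longest, 4.11 ± 0.420 Mb (SD, n = 2), while CT0 was at 3.24 ± 1.65 Mb (SD, n = 2). When LADs under 1 Mb were left out, the near LAD disappeared from CT0 replicate 2, CT6 replicate 2 and CT12 replicate 1 but not from CT18 and CT24 replicate 1, and the exact permutation p became 0.0136. Under that setting the p was 0.104 without either CT18 library and 0.0516 without CT6 replicate 2.

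The bin size that the LAD caller had used moved with the near LAD. It was 4 to 19 kb in the 6 libraries with it (median 8.5 kb) and 4 to 61 kb in the 8 without it (median 33 kb), and none of the 5 libraries with bins over 20 kb had it. Total LAD coverage of the genome was 553 to 663 Mb in the former and 335 to 586 Mb in the latter. The part of bin size in this result was not tested. Among the 8 CT libraries with bins of at most 20 kb, the exact permutation p for the telomere-proximal distance was 0.581. That test leaves out both CT30 mice, whose mean distance was the longest, and has 1 mouse each at CT0 and CT6, so it does not repeat the comparison of 6 CTs.

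**Figure D3:**
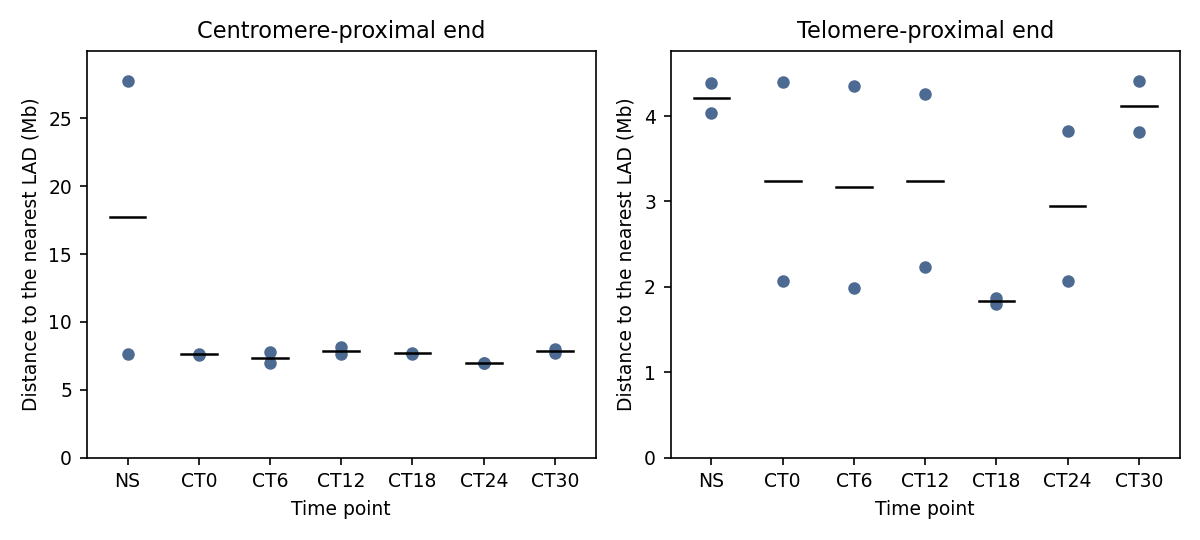
Distance in Mb (y axis) from each end of the Mup cluster to the nearest LAD at each time point (x axis), with 1 point per mouse and a line at the mean of the 2 mice. On the centromere-proximal side the 12 CT mice sit between 6.95 and 8.14 Mb, and on the telomere-proximal side the mice of CT0, CT6, CT12 and CT24 split between about 2 and 4 Mb.

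Within 5 Mb of the cluster on the centromere-proximal side LADs covered 0% in all 14 libraries, and on the telomere-proximal side they covered 11.8% to 63.9%. Over the cluster and both flanks together, LAD coverage was 4.83% to 26.2%, lowest in CT30 replicate 2 and highest in CT18 replicate 1. The 6 CTs did not differ in it beyond the spread between mice (F = 2.20, exact permutation p = 0.182, 0.292 after adjustment over 3 tests). Mean coverage was 21.2 ± 7.03% (SD, n = 2) at CT18 and 7.26 ± 3.44% (SD, n = 2) at CT30.

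A stretch of 10.95 Mb, chr4:53004001-63954000, was free of LADs in all 14 libraries. The Mup cluster filled 20.0% of it and lay toward its telomere-proximal end. It held 217 annotated genes, 97 of them protein-coding, 75 of which are not Mup genes. The nearest coding genes on the centromere-proximal side were Slc46a2 at 41.7 kb, Snx30, which encodes a sorting nexin, at 52.1 kb, and Inip at 155 kb. On the telomere-proximal side they were Zfp37, a zinc finger gene, at 38.7 kb, Slc31a2, which encodes a copper transporter, at 112 kb, and Fkbp15 at 149 kb. None of these 6 was in a LAD in any library.

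The gap between LADs that holds the cluster was not extreme. It was 11.2 to 34.0 Mb long and ranked between 9th and 44th longest among the 66 to 320 gaps of a library. The median distance of a Mup start to the nearest LAD was 2.76 to 5.37 Mb over the libraries, and the median over all other genes on chromosomes with a LAD was 1.90 to 9.37 Mb. Between 29.7% and 67.3% of those other genes, depending on the library, lay at least as far from a LAD as the median Mup gene. Within the cluster the distance followed the order of the genes. For Mup21 it ran from 1.80 to 4.41 Mb over the libraries, and for Mup4 from 3.99 to 6.60 Mb, the farthest start being that of Mup4 in every library.

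How far reads could show a LAD inside the cluster depends on its sequence. Of the 1793913 words of 50 bases in the cluster, counted on both strands over GRCm38, 25.7% occurred at 1 place in the genome. In the LAD-free sequence before and after the cluster the share was 93.2% and 92.8%. In the shared core of the nearest LAD it was 85.7% on the centromere-proximal side and 88.2% on the telomere-proximal side. Of the cluster's words that occurred more than once, 79.5% had all their places inside the cluster, so a read from them may be placed at another Mup copy but not outside the cluster. Bases in masked repeats made up 57.2% of the cluster's sequence. A further 400000 bases, 18.2% of its length, are N in the assembly, in 3 gaps of 50000, 300000 and 50000 bases, where no read can map. Reads had been mapped with Bowtie at default parameters, under which a read with several equal matches is reported at 1 of them. The read length, and any later filter on such reads, were not given in the sources used here.

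Repetition was concentrated in the middle of the cluster. From Mup7 to Mup-ps16 12.0% of the words occurred at 1 place, against 50.4% before Mup7 and 69.97% after Mup-ps16. These bounds were set after the values were seen. Of single genes, Mup5 (92.6%), Mup4 (91.5%), Mup3 (87.1%), Mup21 (84.0%) and Mup6 (56.3%) had most of their words at 1 place. Mup4 and Mup5 are known for expression in glands of the head rather than in liver. The other 17 coding genes ranged from 2.23% in Mup19 to 26.0% in Mup11. Among the 26 pseudogenes the share ran from 0% in Mup-ps24 to 94.1% in Mup-ps23, with a median of 23.2%.

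Coding sequences showed the same division. Over aligned bases, leaving out gaps, the 16 coding genes from Mup7 to Mup19 were 96.6% to 100% identical to each other (median 99.1%, 120 pairs). Mup9 and Mup18 were identical over their aligned coding bases. Mup20, which encodes darcin, the pheromone of male urine to which females are drawn, was 88.9% to 91.5% identical to those 16. Mup3 and Mup21, neighbours at the telomere-proximal end, were 96.3% identical to each other. Each had a median identity of 84.7% to all other coding Mup genes, that pair included. Although Mup20 stood apart in its coding sequence, 10.0% of its words occurred at 1 place. It shared 63.1% of its words with the pseudogene Mup-ps19, which in turn shared 90.1% of its words with Mup20.

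**Figure D4:**
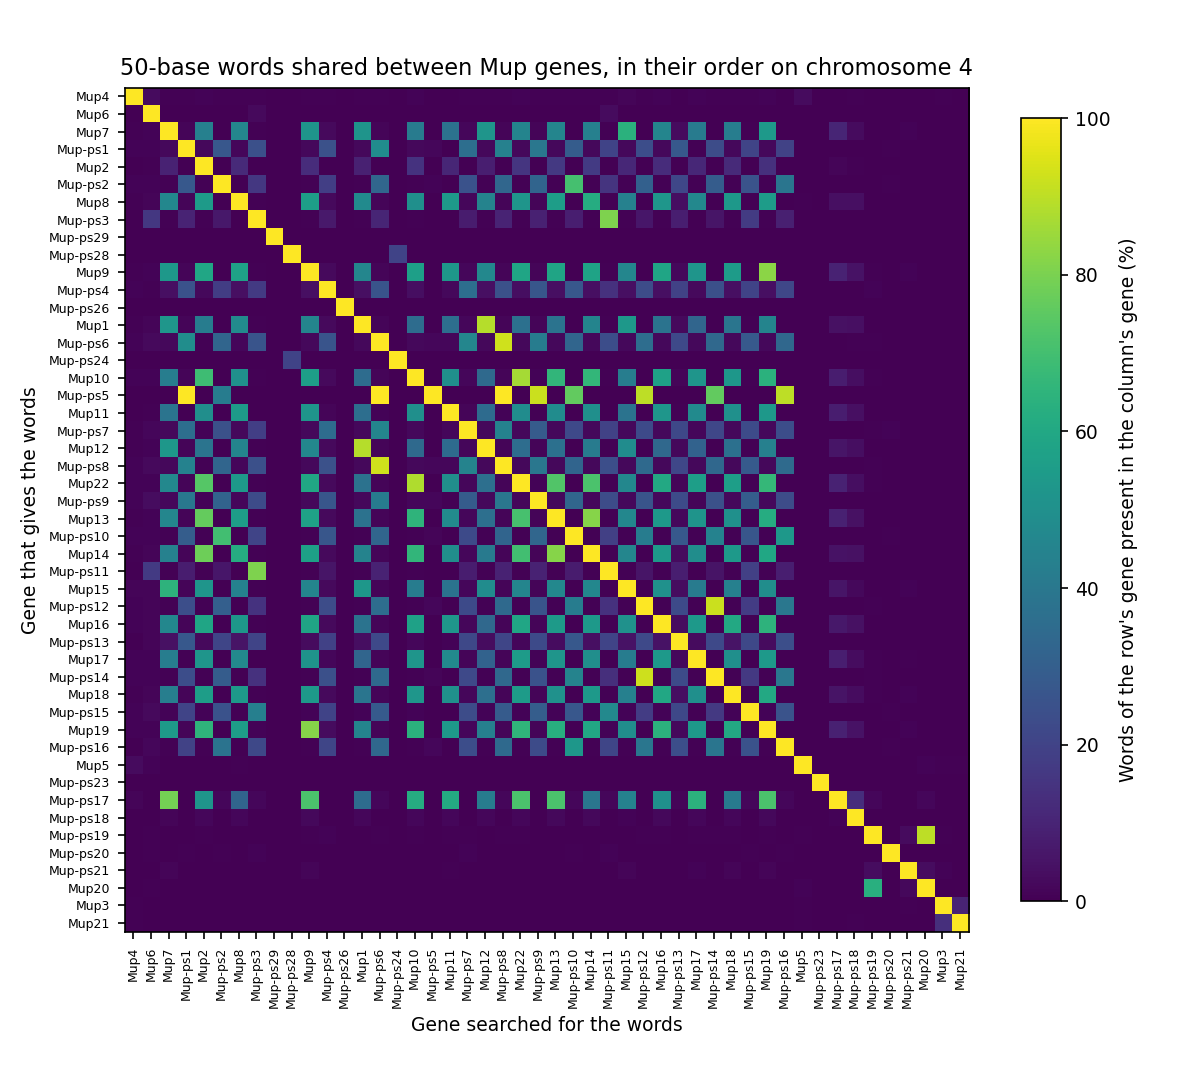
Share of the 50-base words of each Mup gene (rows) that also occur in each other Mup gene (columns), in percent by colour, with the 48 genes in their order on chromosome 4 on both axes. In the chequered block from Mup7 to Mup-ps16 most coding genes share words with coding genes and most unprocessed pseudogenes with pseudogenes, while Mup-ps29 and Mup-ps26 share 0% with any member and the long gene Mup2 at most 16.8%. Past the block, Mup-ps17 shares up to 79.3% of its words with coding genes of the block, and Mup20 shares words with Mup-ps19.

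LADs were called over some repeated sequence elsewhere. Whether those calls rest on reads in the repeats or on neighbouring sequence was not tested. Of the 238 Vmn2r genes, 53 had at most as large a share of words at 1 place as the whole Mup cluster (25.7%). That limit is above the 12.0% of the stretch from Mup7 to Mup-ps16. Of those 53, 48 were in a LAD in at least 1 library, 38 of them in at least 7. All of the 38 lie on chromosomes 7 (29 genes) and 13 (9 genes), so they too are few neighbourhoods. Of the other 185 Vmn2r genes, 141 were in a LAD in at least 1 library and 102 in at least 7. On chromosome 4 a 100-kb bin centred 12.6 Mb past the cluster's centre, with 15.8% of its words at 1 place, lay in a LAD in 7 libraries. The bins directly before and after it, with 89.4% and 86.7% of their words at 1 place, lay in a LAD in 7 libraries each. It is thus a short repeated stretch between mostly single-copy bins, unlike the middle of the Mup cluster. The single-copy sequence directly flanking the Mup cluster, where reads can be placed, was outside LADs in all 14 libraries. Without the deposited signal per base, the LAD state of the middle of the cluster rests on the caller's treatment of these copies, and its part in the result was not tested.

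**Figure D5:**
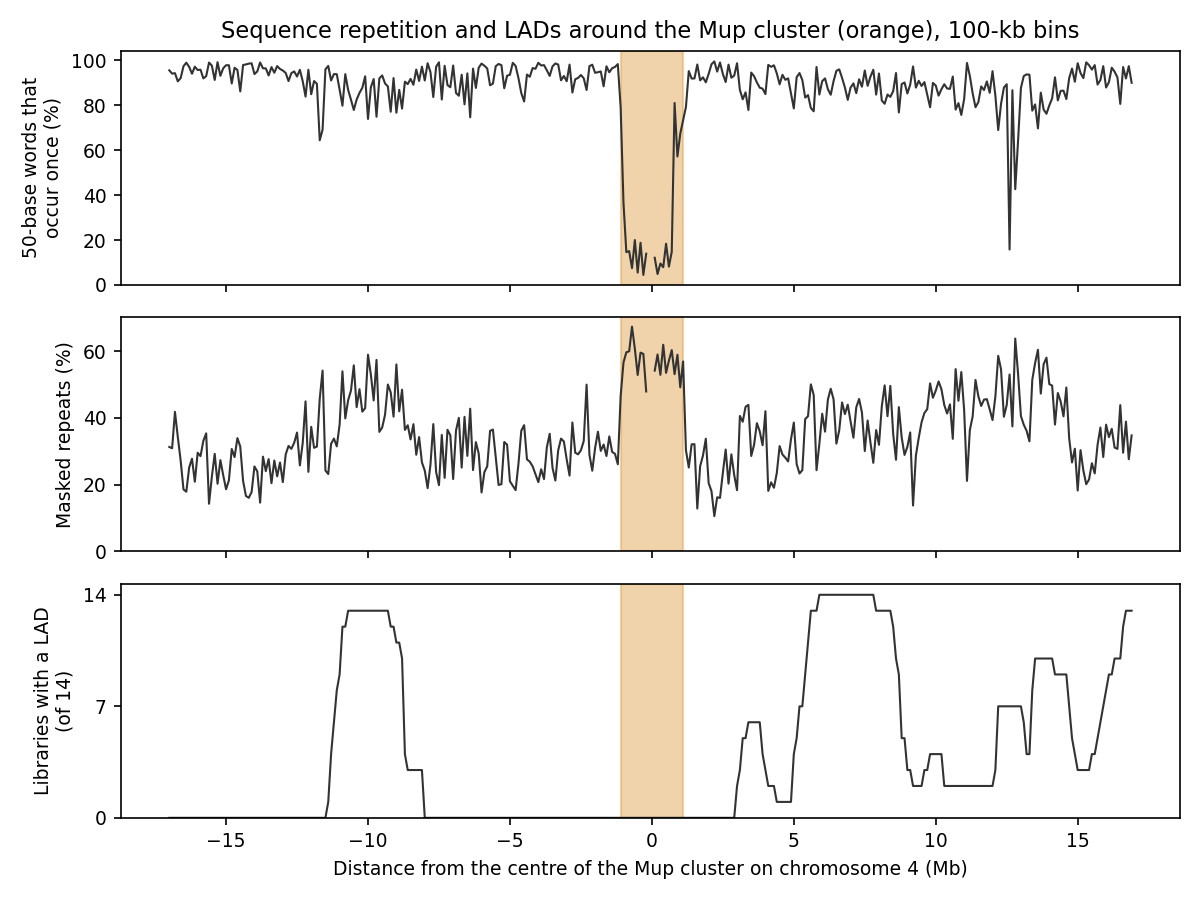
Share of 50-base words that occur once in the genome (top, percent), share of bases in masked repeats (middle, percent) and number of the 14 libraries with a LAD (bottom) in 100-kb bins, by distance in Mb from the centre of the Mup cluster (orange band). The share of words that occur once falls from about 93% outside the cluster to 25.7% over it, and the count of libraries is 0 from the centromere-proximal LAD to the telomere-proximal ones; the break in the lines is an assembly gap.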

How the data were processed

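The deposited files hold LADs of 14 LMNB1 ChIP-seq libraries as chromosome, start and end on mm10. The authors had mapped reads with Bowtie (2.25.0 in the submitters' processing notes, default parameters) after removing duplicates with Picard, thinned ChIP and input to equal depth per chromosome, and called LADs per mouse with Enriched Domain Detector, bin size and gap penalty being averages of repeated runs. The deposited files give no score, count or depth, so the depth per library is unknown and precision rests on 2 mice per time point. Inputs and RNA-seq were not analysed here.

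Genes came from GENCODE vM21, sequence and promoters from GRCm38.p6 and RefSeq. Distances, coverage and word counts were computed in Python 3.11.15 with NumPy 2.4.6 and numba 0.67.0, and alignments with Biopython 1.88. Bin size is the largest number of kb dividing the LAD starts that lie on whole kb. F ratios were tested by exact permutation, and the code was tested on simulated data. Alternatives were other definitions of a gene in a LAD, LADs of at least 1 Mb, other windows, a replicate block and leaving out each library. Genes named are those at the cluster's ends, its 3 nearest coding neighbours on each side, genes of the nearest LADs and the listed lipocalin and regulator genes; other Mup genes were named after their values were seen. Members and lists were chosen with earlier results of these data known. A gene of the regulator list is not reported here.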

Additional observations from a re-analysis of the deposited data

How the results depend on the processing

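Of the alternatives to the 7 tested or compared results, the shares of Mup genes in LADs and the LAD coverage of the cluster stayed at 0 under every one, with a gene body, the lowest coordinate, coding genes or LADs of at least 1 Mb, and without each library. As no LAD overlapped the cluster in any library, none of these alternatives could give another value. They therefore add nothing to the counts. With LADs of at least 1 Mb the exact permutation p for the telomere-proximal distance between CTs became 0.0136, because 3 short LADs were left out. Leaving out 1 library at a time, the exact permutation p ranged from 0.0159 (without CT6 replicate 2) to 0.257 for the centromere-proximal distance, from 0.464 to 0.838 for the telomere-proximal distance and from 0.160 to 0.483 for coverage of the cluster and its flanks. For the Mup share against other genes it was 0.000244 each time, the smallest p that the libraries left allow. Since 0 Mup genes were in LADs, it could take no other value. With words of 36 bases 20.1% of the cluster's words occurred at 1 place, and with words of 100 bases 39.6%. Word lengths and the limit of 20 kb on bin size were chosen after seeing the data.

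With the replicate block, the exact permutation p was 0.192 for coverage of the cluster and its flanks, 0.135 for the centromere-proximal distance and 0.658 for the telomere-proximal distance, and it changed no call. In the sample titles, replicates of different time points are linked only by their number. The deposited names of the LAD sets number the replicates in another way, and the numbers of the titles were used. Deviations of replicate 1 from the mean of its time point, in 100-kb bins of LAD coverage, correlated between time points with r from -0.158 to 0.485, over 0.1 in 6 of 21 pairs.

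Depth is unknown, no signal per base was used, 18.2% of the cluster is unassembled, and most of its words have several places, so a LAD inside it could not be judged copy by copy. With 2 mice per time point, a difference between time points had to exceed the split between replicates seen at CT0, CT6, CT12 and CT24.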
